A study of Homo sapiens with 12 samples.

Results

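The miRNAs described here are both mature strands of miR-28, miR-151a, and miR-708, 3 precursors that lie within introns of protein-coding genes. The 6 members, hsa-miR-28-3p, hsa-miR-28-5p, hsa-miR-151a-3p, hsa-miR-151a-5p, hsa-miR-708-5p, and hsa-miR-708-3p, were chosen by name among the 2588 mature miRNAs of the count table. Each had a single entry in that table, and all 6 passed the expression filter. They were followed in A549 cells, a human lung adenocarcinoma cell line, at 0, 24, and 96 h after TGF-β was added to induce the epithelial-to-mesenchymal transition (EMT). The 0 h cells are the same line before treatment, so that all groups share the line and differ by the time of exposure. Small RNA was sequenced from 2 libraries at each of the 3 time points, and the authors sequenced every library in 2 runs, which they summed. The labels do not say whether the libraries of a time point came from separate cultures, so the p-values measure the spread between these libraries, which may be technical. The first run of each library had the same date, and the second run had one date for 0 h replicate 1 and the 96 h libraries and an earlier one for 0 h replicate 2 and the 24 h libraries. The 24 and 96 h libraries therefore share no second date, and what went with that date and with the time cannot be told apart between them; only the 0 h libraries link the dates.

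An intronic miRNA is cut out of the pre-mRNA of its host gene, or of a separate transcript from the same region, as a hairpin. Dicer then releases a duplex, of which the strand from the 5′ arm (5p) or from the 3′ arm (3p) is loaded into Argonaute and kept, while the other is mostly degraded. The ratio of the strands in a library therefore describes which arm is retained only as far as both strands were captured and sequenced alike, which was not tested. This ratio does not depend on how libraries are scaled to each other. miR-28 and miR-151a are related hairpins that derive from an old transposable element of the LINE class, and the 5p strands of miR-28 and miR-708 carry the same seed, the bases that pair with target mRNAs. The hosts are LPP, a LIM-domain protein of focal adhesions, PTK2, which encodes focal adhesion kinase, and TENM4, a teneurin of the cell surface.

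Mature sequences were taken from RefSeq (table on GRCh38.p14), in which 3 of the 6 members were matched by name. They are shown because the results below set the strands of miR-28 and miR-708 against each other. They are written 5′ to 3′, and capitals mark the seed, bases 2 to 8.
miR-28-3p: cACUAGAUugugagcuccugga
miR-708-3p: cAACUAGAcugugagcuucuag
miR-708-5p: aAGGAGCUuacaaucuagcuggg
The 3p strands resembled each other. With miR-708-3p shifted by 1 base, 17 of 21 bases of miR-28-3p were identical, and the longest shared run, UGUGAGCU, began at base 9 of miR-28-3p and base 10 of miR-708-3p. Because of this shift their seeds differed, and neither seed occurred in another of the 2370 mature names of the RefSeq table. In this table the seed of miR-708-5p, known to be that of miR-28-5p as well, was also found for miR-3139, which had between 0 and 2 counts per library.

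In GENCODE on GRCh37, MIR28 lies on the plus strand of chromosome 3 from 188406569 to 188406654. It is inside intron 7 of LPP (187871072 to 188608460), 19400 bases from the nearest exon in an intron of 98422 bases. MIR708 lies on the minus strand of chromosome 11 from 79113066 to 79113153, inside intron 1 of TENM4 (78363874 to 79152074), 38399 bases from the nearest exon in an intron of 142964 bases. Introns are those of the canonical transcript, both precursors are on the strand of their host, and neither overlaps an exon of it. PTK2 lies on the minus strand of chromosome 8 from 141667999 to 142012315, and MIR151A lies inside it in the RefSeq gene table.

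The libraries held 2335185 to 5971197 reads on mature miRNAs, the lowest at 0 h and the highest at 96 h. One count was worth between 0.227 and 0.372 TMM-normalized CPM, where CPM is the count relative to the library size and TMM is the scaling of edgeR to the bulk of the miRNAs. The share of reads on miR-21-5p, the most abundant miRNA, was 52.4% to 56.1% before treatment, 56.8% to 58.2% after 24 h, and 63.8% to 65.6% after 96 h. miR-200c-3p and miR-141-3p, of the epithelial miR-200 family, were low throughout, with 35 to 75 and 5 to 13 counts per library. They do not stand for the whole family. miR-200b-3p and miR-200a-3p had mean levels of 6.44 and 5.89 log2 CPM and log2-fold changes of 1.60 and 0.81 from 0 to 96 h with TMM. For miR-429, miR-200c-3p, and miR-141-3p these changes were 0.20, −0.03, and −1.14. The myeloid miR-223-3p had 0 counts in all 6 libraries, and the erythroid miR-451a 1 to 3.

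The 6 members spanned 3 orders of magnitude in level. miR-151a-3p had a mean of 8226 TMM-normalized CPM over the 6 libraries and ranked between 8 and 13 among all mature miRNAs. It was followed by miR-151a-5p with a mean of 2475 CPM, miR-28-3p with 819.6 CPM, and miR-28-5p with 120.9 CPM. The miR-708 strands were near the lower end of what was tested, with means of 10.3 CPM for miR-708-5p and 6.16 CPM for miR-708-3p. This order was the same in 6 of 6 libraries. Neighbours in it did not overlap in level over the libraries, except the miR-708 strands, where miR-708-3p reached 9.76 CPM and miR-708-5p went down to 6.70 CPM. miR-151a made up 90.9% to 93.5% of the reads of the 6 members, miR-28 6.43% to 8.95%, and miR-708 0.0878% to 0.216%.

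**Figure D1:**
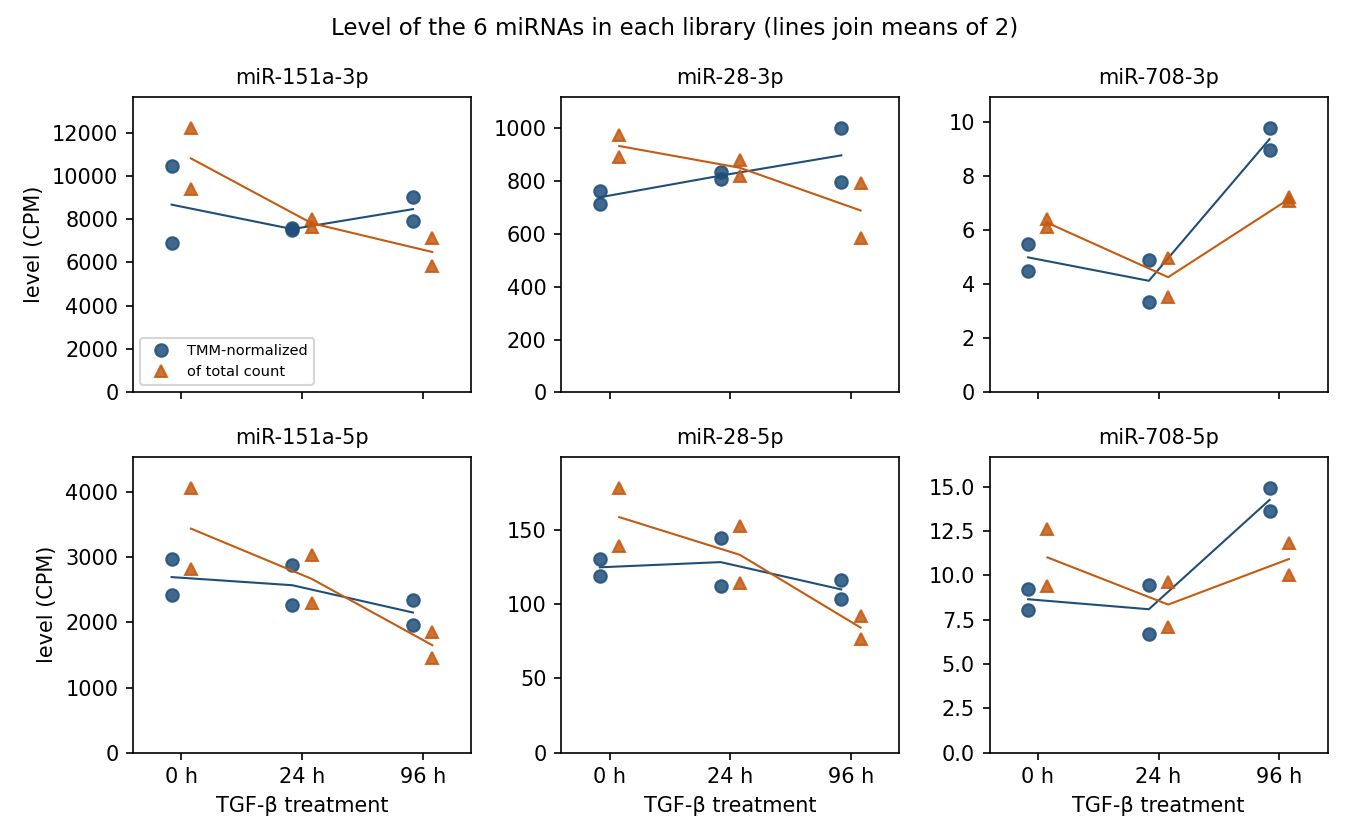
Level of each of the 6 miRNAs (CPM, linear axis from 0) at 0, 24, and 96 h; each point is 1 of 2 libraries, lines join the means, circles are TMM-normalized CPM and triangles are CPM of the total count. Both miR-708 strands were highest at 96 h as TMM-normalized CPM, with 13.6 and 14.9 CPM for miR-708-5p. The scalings part for all 6 miRNAs at 0 h, where means of the total count are higher, and at 96 h, where they are lower.

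Neither strand of miR-28 passed the test between any time points with TMM. miR-28-3p, the abundant strand, was at 764.9 and 713.7 TMM-normalized CPM before treatment, 835.8 and 806.7 CPM after 24 h, and 795.4 and 1001 CPM after 96 h. On this scale all treated libraries were above both 0 h libraries, but the libraries at 96 h differed from each other by more than the means of 0 and 96 h. The log2-fold change at 96 h relative to 0 h was 0.28 (standard error, SE, 0.15, 95% interval from −0.05 to 0.61, adjusted p = 0.151 in the QL test, the quasi-likelihood F-test of edgeR with Benjamini-Hochberg adjustment). miR-28-5p was at 119.1 and 130.4 CPM before treatment, 144.5 and 112.0 CPM after 24 h, and 103.3 and 116.4 CPM after 96 h. Both 96 h libraries were just below both 0 h libraries, and the 24 h libraries lay on either side of them. Its log2-fold change at 96 h was −0.19 (SE 0.18, 95% interval from −0.58 to 0.21, adjusted p = 0.425 in the same test). When each library was left out in turn, the values at 96 h ran from 0.15 to 0.47 for miR-28-3p, lowest without 96 h replicate 2, and from −0.23 to −0.0735 for miR-28-5p. Neither strand was significant at 24 h, with log2-fold changes of 0.15 for miR-28-3p and 0.04 for miR-28-5p. The direction of miR-28-3p at 96 h depended on the scaling. As CPM of the total count it was at 893.7 and 973.4 CPM at 0 h and 586.8 and 791.8 CPM at 96 h, with a log2-fold change of −0.44.

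miR-151a-3p was at 10440 and 6901 TMM-normalized CPM before treatment, 7576 and 7508 CPM after 24 h, and 7920 and 9007 CPM after 96 h. The highest and the lowest of the 6 libraries were both at 0 h, so that no time point stood apart from 0 h. The log2-fold change at 96 h was −0.04 (SE 0.19, 95% interval from −0.46 to 0.39, adjusted p = 0.888, edgeR's QL test), and its direction rested on single libraries: the value became 0.34 on leaving out 0 h replicate 1 and −0.29 on leaving out 0 h replicate 2. miR-151a-5p was at 2418 and 2978 CPM before treatment, 2882 and 2264 CPM after 24 h, and 1967 and 2339 CPM after 96 h. Both 96 h libraries were below both 0 h libraries, by a log2-fold change of −0.33 (SE 0.17, 95% interval from −0.71 to 0.06, adjusted p = 0.146 in the same test). Without 0 h replicate 1 the value was −0.43, with an adjusted p of 0.0408 in edgeR's test, which then called 235 of 538 miRNAs. At 24 h the log2-fold changes were −0.20 for miR-151a-3p and −0.07 for miR-151a-5p, and neither was significant. That of miR-151a-3p was −0.46 without 0 h replicate 2, but 0.17 without 0 h replicate 1. With the date of the second run as a term, which likewise sets the 24 h libraries against 0 h replicate 2, it was 0.13.

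miR-151b is nearly identical to miR-151a-5p and shorter at its 3′ end, so reads of one can be counted as the other. Its counts were 18.2% to 21.6% of those of miR-151a-5p in the 6 libraries. It was at 472.4 and 540.6 TMM-normalized CPM before treatment, 580.8 and 475.6 CPM after 24 h, and 425.1 and 481.6 CPM after 96 h, and its libraries at 0 and 96 h overlapped. The log2-fold change at 96 h was −0.16 (SE 0.16, adjusted p = 0.431, edgeR's QL test). How reads were split between the copies cannot be told from the count table, so both values are uncertain to that extent.

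With TMM, the miR-708 strands had the largest fitted changes of the 6 at 96 h relative to 0 h, on few reads; with total counts they had the smallest. miR-708-5p had 22 and 31 counts before treatment, 18 and 31 after 24 h, and 60 and 55 after 96 h, which is 8.06 and 9.25 TMM-normalized CPM, 6.70 and 9.49 CPM, and 13.6 and 14.9 CPM. miR-708-3p had 15 and 15 counts before treatment, 9 and 16 after 24 h, and 43 and 33 after 96 h, which is 5.50 and 4.48 CPM, 3.35 and 4.90 CPM, and 9.76 and 8.95 CPM. For both strands the 96 h libraries were above all 4 earlier libraries, while those at 0 and 24 h overlapped. The log2-fold change at 96 h relative to 0 h was 0.71 for miR-708-5p (SE 0.31, 95% interval from 0.02 to 1.41, unadjusted p = 0.0453, adjusted p = 0.0826, edgeR's QL test). That of miR-708-3p was 0.91 (SE 0.38, 95% interval from 0.07 to 1.75, unadjusted p = 0.0361, adjusted p = 0.0700 in the same test). Neither passed after adjustment. Runs could be separated in 5 libraries, all but 96 h replicate 2. With the smaller run of these the values were 0.11 and 0.32, and with the larger run 0.83 and 1.24. Without 96 h replicate 2 alone they were 0.69 and 1.01. With totals that leave out miR-21-5p they were 0.36 and 0.56. Relative to 24 h, the log2-fold changes at 96 h were 0.80 for miR-708-5p (SE 0.31, adjusted p = 0.120) and 1.16 for miR-708-3p (SE 0.39, adjusted p = 0.0732), again in edgeR's QL test. With total counts they were 0.37 and 0.725. When the 24 and 96 h libraries alone were fitted, miR-708-3p passed in that comparison, with a log2-fold change of 1.14 and an adjusted p of 0.0497 in edgeR's test, which then called 124 of 474 miRNAs. At 24 h relative to 0 h the values were −0.09 and −0.25, and neither was significant. The direction of miR-708-5p at 96 h relative to 0 h depended on the scaling: as CPM of the total count, it was at 9.42 and 12.6 CPM at 0 h and 10.1 and 11.8 CPM at 96 h, and its log2-fold change was −0.02, while that of miR-708-3p was 0.19.

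miR-28-5p and miR-708-5p can be added as one seed group. Their sum was 127.2 and 139.7 TMM-normalized CPM before treatment, 151.2 and 121.5 CPM after 24 h, and 116.9 and 131.3 CPM after 96 h, and the time points overlapped. As CPM of the total count the sum was 148.6 and 190.5 at 0 h and 86.2 and 104 at 96 h, which did not overlap. With total counts, however, the 491 miRNAs as a whole shifted down between these time points, by a median of −0.83 on the log2 scale. Whether the sum fell by more than this general shift was not tested, and separation on this scale was not counted over the other miRNAs. The share of miR-708-5p in this sum was 6.34% and 6.62% before treatment, 4.43% and 7.81% after 24 h, and 11.7% and 11.4% after 96 h. miR-28-5p thus held most of the reads with this seed in each library, and the share of miR-708-5p was highest in both 96 h libraries. This share compares miRNAs within a library and is the same under any scaling. It was not tested, and it rests on 18 to 60 reads of miR-708-5p per library. In the smaller runs, miR-708-5p and miR-28-5p had 15 and 134 reads in 96 h replicate 1, near the 14 and 134 of 24 h replicate 2. For 0 h replicates 1 and 2 they had 9 and 83 and 15 and 178, and for 24 h replicate 1 they had 5 and 136. In the larger run of 96 h replicate 1 they had 45 and 321.

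**Figure D2:**
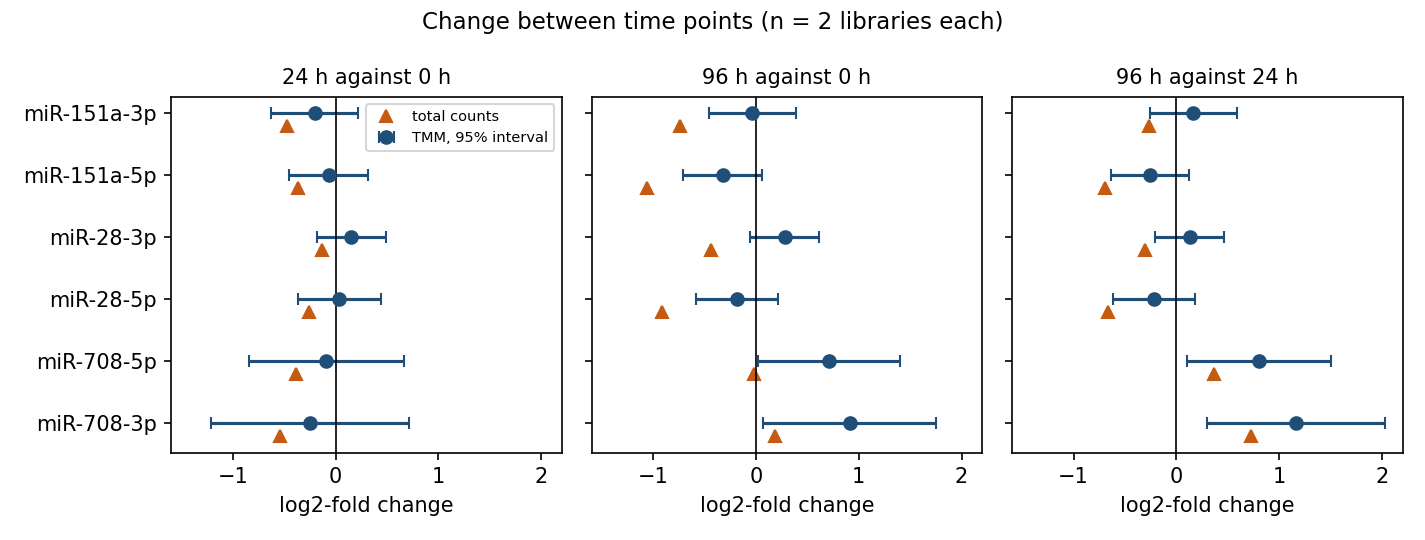
Log2-fold change (x axis) of each miRNA in the 3 comparisons of time points, from 2 libraries per time point; circles are values with TMM and bars their 95% intervals, triangles are values with total counts. At 96 h relative to 0 h the intervals of the miR-708 strands begin just above 0, at 0.02 and 0.07, and every triangle lies to the left of its circle.

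With TMM and all 6 libraries, none of the 6 members was significant, at an adjusted p under 0.05, in any of the 3 comparisons with edgeR's QL test. With DESeq2's Wald test 0 were, and the miR-708 strands had no adjusted p there at 24 h relative to 0 h. DESeq2 gave 180, 46, and 71 significant miRNAs of the 491 at 96 h relative to 0 h, 24 h relative to 0 h, and 96 h relative to 24 h. At an unadjusted p under 0.05, edgeR gave 2 members at 96 h relative to 0 h, 0 at 24 h relative to 0 h, and 2 at 96 h relative to 24 h, in each case the miR-708 strands, against 274, 139, and 152 of the 491 tested miRNAs. Of all 491 miRNAs tested, 44.0% were significant at 96 h relative to 0 h, 7.13% at 24 h relative to 0 h, and 12.6% at 96 h relative to 24 h. The median log2-fold change of the 6 members at 96 h relative to 0 h was 0.12 with TMM, against −0.10 for all tested miRNAs. With total counts it was −0.59 against −0.83, and with totals without miR-21-5p −0.22 against −0.45. The libraries at 0 and 96 h did not overlap for 5 of the 6 members, all but miR-151a-3p, as was the case for 71.7% of all tested miRNAs. At 24 h they did not overlap with 0 h for miR-28-3p alone, against 57.8% of all tested miRNAs, and at 96 h they did not overlap with 24 h for miR-151a-3p and the miR-708 strands, against 61.9%. All comparisons with 0 h use the same libraries and are not independent. With the date of the second run as a term, 0 of the 6 members were significant in any comparison with edgeR's QL test, against 186, 82, and 30 of the 491 miRNAs in the same order of comparisons. This term is set by the 0 h libraries alone, so in effect the 96 h libraries are compared with 0 h replicate 1. At 96 h relative to 0 h the values were 0.23 for miR-28-3p, −0.12 for miR-28-5p, −0.30 for miR-151a-3p, −0.17 for miR-151a-5p, 0.82 for miR-708-5p, and 0.77 for miR-708-3p.

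**Figure D3:**
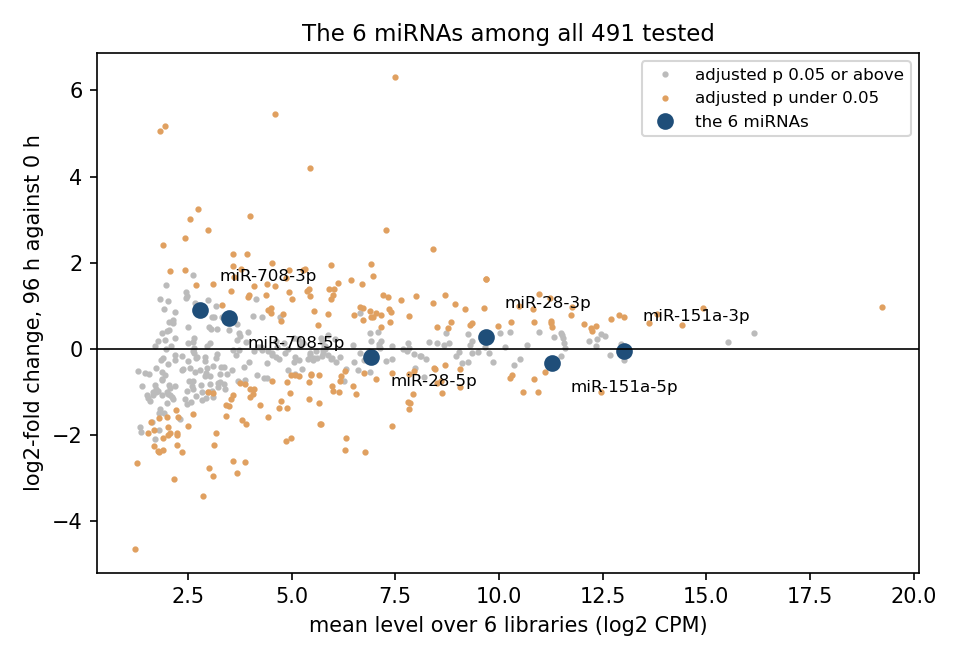
Log2-fold change at 96 h relative to 0 h (y axis) against the mean level over the 6 libraries (log2 CPM, x axis) for all 491 tested miRNAs, with those at an adjusted p under 0.05 in orange and the 6 members in blue. None of the 6 members is among the 216 significant miRNAs.

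Scaling by the total count changed the calls of several members, as did limma on the authors' normalized values of 5 libraries, which are also scaled to totals. When libraries were scaled by their total count, the median change of the 491 tested miRNAs at 96 h relative to 0 h moved on the log2 scale from −0.10 to −0.83, and the significant miRNAs went from 112 higher and 104 lower to 44 higher and 279 lower. On that scale 4 members were significantly lower at 96 h in edgeR's test: miR-151a-5p at −1.06 (adjusted p = 0.00339), miR-151a-3p at −0.74 (adjusted p = 0.00394), miR-28-5p at −0.92 (adjusted p = 0.00632), and miR-28-3p at −0.44 (adjusted p = 0.0490). The members together took 1.61% and 1.46% of all reads before treatment, 1.21% and 1.09% after 24 h, and 0.798% and 0.988% after 96 h. Their share of reads was thus lower in both 96 h libraries than in any earlier one, while the share of miR-21-5p was higher. Leaving miR-21-5p out of the totals gave a median of −0.45 for all tested miRNAs and 2 significant members, against 245 of the 491 miRNAs, miR-28-5p at −0.54 (adjusted p = 0.0368) and miR-151a-5p at −0.68 (adjusted p = 0.0136, edgeR's test). Relative to the median of all tested miRNAs, which moves with the scaling by construction, miR-28-3p was 0.38 above it with TMM, miR-151a-5p 0.23 below it, and miR-708-3p 1.01 above it. At 24 h relative to 0 h, total counts moved the median of all tested miRNAs from −0.00 to −0.30, and 0 members were significant, against 71 of the 491 miRNAs (14.5%). At 96 h relative to 24 h it moved from −0.05 to −0.49, and miR-28-5p at −0.66 (adjusted p = 0.0485) and miR-151a-5p at −0.69 (adjusted p = 0.0434) were significant in edgeR's test, 2 of the 6 members beside 139 of the 491 miRNAs (28.3%), 123 of them lower.

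The strand ratios are free of this scaling. miR-28 and miR-151a were dominated by the 3p strand in each of the 6 libraries. miR-708 had more 5p than 3p reads in each, but by less and on few reads. Of the 108 precursors with both strands tested, 58 had more 5p and 50 had more 3p. miR-28-3p outnumbered miR-28-5p by 5.47 to 8.60 times, miR-151a-3p outnumbered miR-151a-5p by 2.32 to 4.32 times, and miR-708-5p outnumbered miR-708-3p by 1.40 to 2.07 times.

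For miR-28, the 5p share of both strands was 13.47% and 15.45% before treatment, 14.7% and 12.2% after 24 h, and 11.5% and 10.4% after 96 h. Both 96 h libraries were below the 4 earlier ones. The 95% Wilson intervals, which cover counting error only because PCR copies of a molecule were not marked and are each counted, were 12.2% to 14.9% for the lower 0 h library and 10.5% to 12.5% for the higher 96 h library. The log2 ratio of 5p to 3p changed by −0.46 from 0 to 96 h (SE 0.25, 95% interval from −1.01 to 0.10, adjusted p = 0.295, limma with Benjamini-Hochberg adjustment over the 108 precursors), and this was not significant. It was between −0.57 and −0.34 when each library was left out in turn, with −0.38 on leaving out 96 h replicate 2. In the 5 libraries in which runs could be separated, which also lack 96 h replicate 2, it was −0.11 with the smaller run and −0.49 with the larger run. The log2 ratio of the runs of one library differed by 0.11 to 0.37 for miR-28, against 0.23 between the 0 h libraries.

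For miR-151a, the 5p share was 18.8% and 30.1% before treatment, 27.6% and 23.2% after 24 h, and 19.9% and 20.6% after 96 h. The 0 h libraries were the lowest and the highest of all 6, with Wilson intervals of 18.4% to 19.2% and 29.7% to 30.6%. On the log2 scale they differed by 0.90, whereas the 2 runs of one library differed by 0.0047 to 0.0424 in the 5 libraries in which runs could be separated. At 0 h, 27 of the 108 precursors (25%) had an SD of the log2 ratio at least as large as that of miR-151a, and the median SD over the precursors was 0.41 before treatment, 0.24 after 24 h, and 0.26 after 96 h. The change from 0 to 96 h was −0.32 (SE 0.28, 95% interval from −0.96 to 0.33, adjusted p = 0.467, limma). It was −0.76 without 0 h replicate 1 (adjusted p = 2.89e-05, limma) and 0.13 without 0 h replicate 2 (adjusted p = 0.697, limma), so that both the call and its direction rest on single 0 h libraries; these fits called 22 of 124 and 8 of 122 precursors. Listed by the date of the second run, the 5p shares on the later date were 18.8% at 0 h and 19.9% and 20.6% at 96 h. On the earlier date they were 30.1% at 0 h and 27.6% and 23.2% at 24 h. With that date as a term, chosen after seeing the data, the changes were 0.13 from 0 to 96 h (adjusted p = 0.706), −0.35 from 0 to 24 h (adjusted p = 0.244), and 0.48 from 24 to 96 h (adjusted p = 0.540), all by limma and each opposite in sign to the value without it. Which of the separated runs had which date is not given in the sources used here, and the part of the second date in these shares was not tested. The change from 0 to 24 h was 0.10 (adjusted p = 0.933, limma), and it became −0.35 on leaving out 0 h replicate 1 and 0.55 on leaving out 0 h replicate 2 (adjusted p = 0.0247 for the latter, limma, where 3 of 122 precursors were called). From 24 to 96 h, where the libraries did not overlap, it was −0.42 (SE 0.28, adjusted p = 0.537, limma). That value does not use the 0 h libraries, but its error does: the adjusted p was 0.0234 without 0 h replicate 1, 0.0251 without 0 h replicate 2, and 0.0386 with the 24 and 96 h libraries alone (limma in each case), where 5 of 124, 9 of 122, and 5 of 107 precursors were called.

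For miR-708, the 5p share was 59.5% and 67.4% before treatment, 66.7% and 66.0% after 24 h, and 58.3% and 62.5% after 96 h. With 27 to 103 reads on both strands per library, the Wilson intervals were wide, from 47.8% to 81.4% for 24 h replicate 1 and from 48.6% to 67.3% for 96 h replicate 1. These and that of 0 h replicate 1, from 43.49% to 73.65%, include an equal share of both strands. Those of the other libraries lie above it. The 96 h libraries overlapped with those at 0 h. The change of the log2 ratio from 0 to 96 h was −0.18 (SE 0.42, 95% interval from −1.12 to 0.77, adjusted p = 0.798, limma), and this interval includes the value of miR-28. The runs of one library differed by 0.12 to 1.21 for miR-708, against 0.49 between the 0 h libraries.

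**Figure D4:**
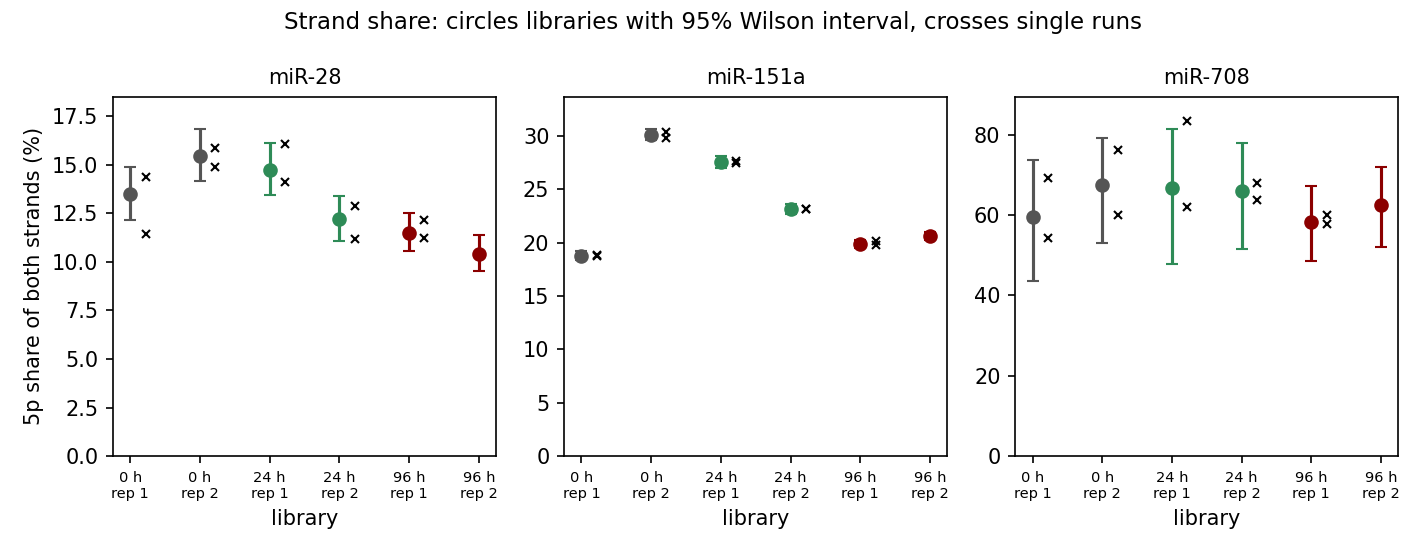
Share of the 5p strand among both strands (%, axis from 0) in each of the 6 libraries for miR-28, miR-151a, and miR-708; circles are libraries with their 95% Wilson intervals, and crosses are the separated runs of 5 libraries. The 0 h libraries of miR-151a lie apart, at 18.8% and 30.1%, with the runs of each on top of each other, and the 96 h libraries of miR-28 lie lowest, at 11.5% and 10.4%.

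Across all 108 precursors, 0.926% had a significant change of the strand ratio from 0 to 96 h with limma, a single precursor, miR-27b, at −1.40 (adjusted p = 0.0151), named after its value was seen. With no trend, with the compared libraries alone, and with the larger or the smaller run of the 5 libraries that exclude 96 h replicate 2, 0 precursors were significant in this comparison. From 0 to 24 h and from 24 to 96 h the share was 0%. With limma on all 6 libraries, none of miR-28, miR-151a, and miR-708 was significant in any of these comparisons. None reached an unadjusted p under 0.05 in limma either, which 24, 8, and 9 of the 108 precursors did. The edgeR test of the strand by time point interaction also gave 1, 0, and 0 precursors. The 0 and 96 h libraries did not overlap in strand ratio for miR-28 alone among the 3, against 53.7% of the 108 precursors, and the 24 and 96 h libraries did not overlap for all 3, against 50.9%.

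Other miRNAs from introns of protein-coding genes were counted from a list of 40 precursors, of which 65 mature strands were tested. In the GRCh37 annotation 37 of the 40 were found by name and 36 of them lay within a protein-coding gene on its strand. At 96 h relative to 0 h, 7 of the 65 rose, 20 fell, and 38 were not significant, so that 41.5% were called, with a median log2-fold change of −0.20. Over all 491 tested miRNAs, 112 were higher and 104 lower, 44.0% in all, with a median of −0.10. miR-26a-5p, from introns of the CTDSP phosphatase genes and the most abundant on the list, rose by a log2-fold change of 0.70 (SE 0.16, adjusted p = 0.00693, edgeR's QL test). The next in level were not significant in that test: miR-103a-3p, of the pantothenate kinase genes, had 0.26 (adjusted p = 0.115), miR-224-5p, within GABRE, had 0.33 (adjusted p = 0.156), and miR-25-3p, within MCM7, had −0.17 (adjusted p = 0.329). At 24 h relative to 0 h, 0 rose and 2 fell, 3.08% of the 65 against 7.13% of all tested miRNAs, and at 96 h relative to 24 h, 0 rose and 3 fell, 4.62% against 12.6%.

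Likeness between profiles was described by Pearson's r of log2 TMM-normalized CPM over the 6 libraries, which share depth and scaling within a library. The strands of miR-708 had an r of 0.94 with each other, while those of miR-28 had −0.12 and those of miR-151a −0.34. Between strands of different precursors, miR-28-5p had an r of 0.94 with miR-151a-5p and −0.74 with miR-708-5p, which shares its seed, and miR-151a-5p had −0.67 with miR-708-5p. The 3p strands of miR-28 and miR-151a had 0.31, and miR-708-5p had 0.51 with miR-28-3p and 0.11 with miR-151a-3p. Among the 317 tested miRNAs outside the 6 members that averaged 10 CPM or more, miR-28-5p was closest to miR-151b (r = 0.98), miR-24-3p (0.95), and miR-16-5p (0.94), and miR-151a-5p to miR-193a-3p, miR-1307-5p, and let-7i-3p (0.98, 0.98, and 0.97). miR-28-3p was closest to miR-101-3p, miR-935, and miR-92a-3p (0.91, 0.91, and 0.90), and miR-151a-3p to miR-132-3p, miR-200c-3p, and miR-197-3p (0.93, 0.93, and 0.89). miR-708-5p was closest to miR-1246, miR-127-3p, and miR-1290 (0.93, 0.91, and 0.90), and miR-708-3p to miR-30d-5p, miR-450a-5p, and miR-1246 (0.94, 0.94, and 0.92). The closest profiles were picked as the highest of 317 values over 6 libraries, so their r is high by selection and was not tested. The miR-708 profiles also rest on 18 to 60 reads for 5p and 9 to 43 for 3p per library.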

How the data were processed

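Small RNA libraries of A549 cells were quantified by the authors with miRDeep2. The deposited table of raw counts lists each mature miRNA under its precursor, not normalized and with the runs of a library added up. A second deposited table holds a signal, the sum of both runs after scaling each to a common total; 1 column of it repeats another and was not used, so 96 h replicate 2 has no value there. The submitters' processing notes name FastQC and hg19. Which run date belongs to which separated run is not given in the sources used here; comparisons within the date of the second run are those that leave out the 0 h library of the other date.

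Tests on counts used edgeR 4.0.16 under R 4.3.3 (TMM, filterByExpr with a minimum count of 10, quasi-likelihood F-test on all 6 libraries with time point as the only term). For names with several entries the one with the highest total was used. Strand ratios, log2((5p + 0.5)/(3p + 0.5)), were tested with limma 3.58.1 (eBayes with a trend on the level of the lesser strand). Adjusted p-values are Benjamini-Hochberg over all 491 miRNAs or all 108 precursors, and significant means under 0.05. The standard error is that of the log2-fold change, and intervals are 95%. With 2 against 2 libraries, an exact two-sided permutation test could not go below 0.333. Runs were separated from the normalized values in 5 libraries, where 100% of the entries with a count matched whole reads of 2 runs within 0.0101. The procedures were tested on simulated data with changes larger than those of the 6 members with TMM, the same spread for all miRNAs, and no effect of run date. That test does not cover small changes or a difference like that between the 0 h libraries. The members, the list of other intronic miRNAs, and the rules for naming (the 6 members, miR-151b, the 3 closest profiles of each, the 4 most abundant on the list) were chosen with earlier results of these data known. Alternatives were other scalings and tests (DESeq2 1.42.0), filters, a pseudocount of 5, the libraries compared alone, a block, the second run date as a term, and leaving out each library. Positions are from GENCODE release 44 on GRCh37; Python 3.11.15, pandas 2.3.3, and matplotlib 3.10.9 were used.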

Additional observations from a re-analysis of the deposited data

How the results depend on the processing

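Values are log2-fold changes, or changes of the log2 strand ratio where strands are named. With 2 libraries per time point, the direction of most small changes rested on single libraries or on the scaling; the cause was not tested. At 96 h relative to 0 h, scaling by the total count gave −0.44 for miR-28-3p, −0.92 for miR-28-5p, −0.74 for miR-151a-3p, −1.06 for miR-151a-5p, and −0.0194 for miR-708-5p. Totals without miR-21-5p gave −0.0698 for miR-28-3p, −0.54 for miR-28-5p, and −0.68 for miR-151a-5p. limma on log2 of the deposited normalized values plus 1, in 5 libraries, gave −0.65, −0.95, −0.86, −1.20, and −0.22 for these 5 strands in the first order, the first 4 significant, where 218 of the 491 miRNAs were (27 higher, 191 lower, median −0.77). miR-151a-3p was at 0.0464 with the size factors of DESeq2 and with its Wald test, 0.0162 with no expression filter, and 0.0122 with the compared libraries alone. In the comparison of 24 with 0 h, miR-28-3p and miR-28-5p were at −0.13 and −0.25 with total counts, −0.0282 and −0.15 without miR-21-5p, and −0.16 and −0.23 with limma on the normalized values, and miR-28-5p was at −0.0486 among miRNAs with a mean of 10 CPM or more. In the comparison of 96 with 24 h, total counts gave −0.30 for miR-28-3p, −0.66 for miR-28-5p, −0.27 for miR-151a-3p, and −0.69 for miR-151a-5p. Totals without miR-21-5p gave −0.0417 and −0.0050 for miR-28-3p and miR-151a-3p, and limma on the normalized values −0.49 and −0.40. For miR-708-5p and miR-708-3p, total counts gave 0.37 and 0.725, and limma on the normalized values 0.28 and 0.76. With the compared libraries alone, miR-708-3p at 1.14 and the strands of miR-151a at −0.42 became significant. Filtering on a mean of 10 CPM left no value for miR-708-3p or the strands of miR-708.

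Single runs, the date of the second run as a term, and the addition of miR-151b to miR-151a-5p were alternatives chosen after seeing the data; the latter changed no call of the miR-151a strands. Runs could be separated in 5 libraries, so that fits with a single run also leave out 96 h replicate 2 and change both at once; without that library alone, miR-28-3p was at 0.15 at 96 h relative to 0 h. With the smaller run, miR-28-3p was at −0.0139 in that comparison, and miR-28-3p and miR-151a-3p were at −0.0185 and −0.0149 at 96 h relative to 24 h. With the larger run, miR-28-3p was at −0.0935 in the latter comparison. For 24 h relative to 0 h, the larger run gave −0.0506 for miR-28-5p, 0.0451 for miR-708-5p, 0.0073 for miR-708-3p, and −0.0535 for the strands of miR-708, and the smaller run 0.0485 for the strands of miR-28. With the date of the second run as a term, the strands were at 0.13 for miR-151a and 0.0645 for miR-708 from 0 to 96 h, at −0.35 and −0.0759 from 0 to 24 h, and at 0.48 and 0.14 from 24 to 96 h. In the same fit, miR-28-5p and miR-151a-3p were at −0.0276 and 0.13 from 0 to 24 h, and miR-151a-3p and miR-151a-5p at −0.43 and 0.0438 from 24 to 96 h. This fit called 186, 82, and 30 miRNAs and 5, 0, and 0 strand pairs in the comparisons of 96 with 0 h, 24 with 0 h, and 96 with 24 h. Only the 0 h libraries set its date term. For strands, its values from 0 to 96 h and from 0 to 24 h are thus those without 0 h replicate 2 and without 0 h replicate 1.

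Leaving out each library in turn, the values at 96 h relative to 0 h ran from −0.29 to 0.34 for miR-151a-3p, from −0.43 to −0.16 for miR-151a-5p, from −0.76 to 0.13 for the strands of miR-151a, and from −0.42 to 0.0645 for those of miR-708. A time point left with 1 library is assumed to vary like the others. At 24 h relative to 0 h they ran from −0.12 to 0.16 for miR-28-5p, from −0.46 to 0.17 for miR-151a-3p, from −0.22 to 0.10 for miR-151a-5p, from −0.42 to 0.16 for miR-708-5p, and from −0.61 to 0.0171 for miR-708-3p. For the strands they ran from −0.28 to 0.0348 in miR-28, from −0.35 to 0.55 in miR-151a, and from −0.0759 to 0.41 in miR-708. From 24 to 96 h the strands of miR-151a ran from −0.58 to −0.25. miR-708-3p stayed above 0 at 96 h relative to 0 h, between 0.12 and 1.24, in the 17 alternatives that gave it a value, with adjusted p from 0.0540 to 0.844.

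Significant miRNAs numbered 216 at 96 h relative to 0 h, but 120 and 124 without 96 h replicate 1 and 2, and 107 and 120 with the larger and smaller runs, which also lack 96 h replicate 2. At 24 h relative to 0 h, 35 became 71 with total counts, 55 without miR-21-5p, 18 with limma on the normalized values (another test, scaling, and 5 libraries at once), 54 with no filter, 21 with the compared libraries alone, and between 4 and 91 without single libraries. At 96 h relative to 24 h, 62 became 139 with total counts, 10 with limma on those values, 98 with no filter, 124 with the compared libraries alone, 19 without 96 h replicate 2, 10 and 20 with the larger and smaller runs without that library, and between 9 and 128 without single libraries. Significant strand ratios numbered between 0 and 22 at 96 h relative to 0 h, between 0 and 3 at 24 h, and between 0 and 9 at 96 h relative to 24 h without single libraries.

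With the replicate number as a replicate block, the log2-fold changes at 96 h relative to 0 h were 0.28 for miR-28-3p, −0.19 for miR-28-5p, −0.02 for miR-151a-3p, −0.32 for miR-151a-5p, 0.72 for miR-708-5p, and 0.91 for miR-708-3p, and no call of a member changed. Over 491 miRNAs, deviations of same-numbered libraries correlated by −0.30 for 0 and 24 h, 0.31 for 0 and 96 h, and −0.18 for 24 and 96 h, so the numbers were not taken as pairs. Libraries with the same number share the second run date in 1 of the replicates for 0 and 96 h and in 1 for 0 and 24 h. With the block, 206, 40, and 82 miRNAs were significant in the comparisons of 96 with 0 h, 24 with 0 h, and 96 with 24 h.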
